A study of Bos taurus with 2 samples.

Results

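The genes described here encode splicing factors and heterogeneous nuclear ribonucleoproteins (hnRNPs). They were chosen by name, as the array probes other than controls whose gene name starts with SRSF, SFRS, SNRP (without SNRPN), HNRNP, HNRP, SF3A, SF3B, U2AF or PRPF. The rule gave 207 probes for 67 genes, out of 51280 probes and 31909 gene names on the array. By the start of their array names they fall into 6 families. These include 11 SR protein genes, 11 genes of small nuclear ribonucleoprotein (snRNP) proteins and 20 hnRNP genes. The rest are 9 genes of SF3A and SF3B, 3 U2AF genes and 13 PRPF genes. The array names SFRS18, SFRS13A, HNRPDL, HNRPLL and SF3B14 stand for the genes now called PNISR, SRSF10, HNRNPDL, HNRNPLL and SF3B6.

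Total RNA of spermatozoa was compared between high-fertile and low-fertile breeding bulls (HF crossbred animals of Bos taurus), with 1 microarray per fertility group. The sample labels read bulls, with neither the number of animals pooled in each RNA nor the way fertility was scored. RNA was copied from an oligo-dT primer and labelled with the dye Cy3, so each array reads 1 colour and favours RNA with a poly(A) tail. With 1 array per group no difference has a replicate check, and no p-value is given.

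Splicing removes introns from pre-mRNA and is carried out by the spliceosome, which is built from snRNPs, each a small RNA with a ring of Sm proteins and its own specific proteins. U2AF and the SF3A and SF3B complexes mark the end of the intron and its branch point, SR proteins mostly help exons to be recognised, hnRNPs coat the transcript and often act against them, and PRPF proteins belong largely to the particles that form the catalytic core. Ripe spermatozoa hardly transcribe their nuclear genes, and much of their RNA is thought to remain from spermatogenesis.

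A probe was called measured when it was well above background, by the scanner software's flag, on both arrays. Wherever a gene or probe is said to have signal or to be above background on an array, this flag is meant. Signals are background-subtracted spot intensities on a linear scale, and each array was scaled to the 75th percentile of its measured probes, 148.6 for the high-fertile array and 186.3 for its low-fertile counterpart. A signal ratio of 0.797, high-fertile over low-fertile, therefore stands for equal scaled signal. Differences are log2 values, high-fertile minus low-fertile, after that scaling, and a gene's value is the mean over its measured probes. A gene was counted as higher or lower when its difference reached 2-fold, a log2 value of 1. The SD between 2 spots of one probe was 0.28 over 3038 probes, and the SD between probes of one gene averaged 0.42 over the 11 genes of these families with several measured probes, as it did over all 1852 such genes (0.42). These are errors within arrays, and the spread between bulls was not measured.

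Of 61657 spots other than controls, the high-fertile array had 33.2% well above background and the low-fertile array 32.9%, and none was saturated. Of 15 sperm marker genes 9 were measured, with differences from -1.10 to 1.22 and a median of 0.05. The transition protein gene TNP2 (1.22) and the actin-like gene ACTL7B (1.19) were at least 2-fold higher and the protamine gene PRM1 (-1.10) at least 2-fold lower, while PRM2, the other protamine gene, and the fibrous sheath gene AKAP4 were not measured. Markers of leukocytes (7 of 12, median 0.11), epithelial and other somatic cells (7 of 12, 0.27), testis somatic cells (6 of 12, -0.06) and epididymis and accessory glands (4 of 12, -0.12) were also measured. Averaged over measured probes, ODF1, the brightest sperm marker, read 318.7 on the high-fertile array, against 337.8 on the low-fertile one. Of the leukocyte list, PTPRC (539.1, against 959.9), LYZ (794.4, against 789.0) and CD79A (528.0, against 566.5) were brighter than ODF1 on both arrays. The other measured leukocyte markers were dimmer than ODF1. The part of other cells in the results was not tested.

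The central stretches of the probes whose values carry the account below are printed here, bases 16 to 45 of each 60-base probe, as letters of the array file read 5′ to 3′. They are shown to let a reader place the signal along each transcript, since probes of HNRNPA1, SNRPD1 and SNRPE gave differences of opposite sign. The capitals mark AATAAA, the usual polyadenylation signal. Coordinates cover the whole probe on build HGSC Btau_3.1. The 4 HNRNPA1 probes lie on the minus strand, from the 3′ end at chr5:28631289-28631348, chr5:28632574-28632633, chr5:28632636-28633597 (60 bases spread over 962 bases of genome) and chr5:28634108-28634167. The SNRPD1 probes lie on the minus strand at chr24:35730520-35730579 and chr24:35733058-35733117, and the SNRPE probes on the plus strand at chr16:631722-631781, chr16:631717-631775 and chr16:629173-631624. The U2AF2 probes lie on the minus strand of an unplaced scaffold, from 74302 to 74361 and from 82633 to 82933. The PNISR probes lie on the plus strand at chr9:52559556-52559615 and chr9:52559248-52559554, the SRSF5 probe on the plus strand at chr10:83774050-83774109 and the SRSF9 probe on the minus strand at chr17:66029955-66030014. No annotation of that build was used here, so the exon or untranslated region each probe lies in is not given.
HNRNPA1 nearest the 3′ end: tatagatgggaatgaagcttgtgtatcatc
HNRNPA1 next upstream: attttggacccatgaaaggaggaaactttg
HNRNPA1 split probe: aagcaattttggaggtggcggaagctacaa
HNRNPA1 farthest upstream: gaatggccacaactgtgaagtgagaaaagc
SNRPD1 nearest the 3′ end: gaatgttcaagttttttgtacaggctttgt
SNRPD1 upstream: acactactcgtggatgtggaaccaaaggtg
SNRPE nearest the 3′ end: gttattaccagatgacAATAAAtgctgtgg
SNRPE overlapping probe: cttatgttatcaccagatgacAATAAAtgc
SNRPE upstream: ctaaaaggagataacattactctgatccaa
U2AF2 nearest the 3′ end: ccctcctctctgtggcagtttcatatttgc
U2AF2 upstream: cccccgccacgagaagaagaagaaggtccg
PNISR downstream: acgctgaggaatgatgtggcaacaatgcca
PNISR upstream: aggcaagccgcaaacacaagtctaagtccc
SRSF5: aacagctgtctggcaaagacgttaagacag
SRSF9: tgactgagtcggcccattctgtttagaaat

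Spermatozoal RNA gave signal on both arrays for 36 of the 67 genes (53.7%, against 36.4% of all gene names on the array). Another 4 genes were above background on the high-fertile array only, 1 on the low-fertile array only, 1 through a different probe on each array, and 25 on neither. Counted by probe, 51 of 207 were measured (24.6%, against 27.6% of all probes), 8 had signal on the high-fertile array only, 5 on the low-fertile array only and 143 on neither. The share of one-array genes and probes over the whole array was not computed, so those counts have no background to be read against. These families have 3.09 probes a gene on the array and all gene names 1.61, and a gene counts as measured through any of its probes. Several well-known members had no probe called above background. Neither SRSF1, the founding SR protein, nor HNRNPA2B1, an abundant nuclear hnRNP, was above background on either array. SF3A1, SF3A2 and SF3A3, the whole SF3A complex, had no probe called well above background. An SF3A2 probe without the call read 25.3 on the high-fertile array and 30.9 on the low-fertile array. The lowest called signals were 22.6 and 30.3. SRSF1, SF3A1 and SF3A3 rest on 1 probe each, so absence of their RNA does not follow. An HNRNPA2B1 probe read 5.36 on the high-fertile array and 37.2 on the low-fertile array, without the detection call.

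**Figure D1:**
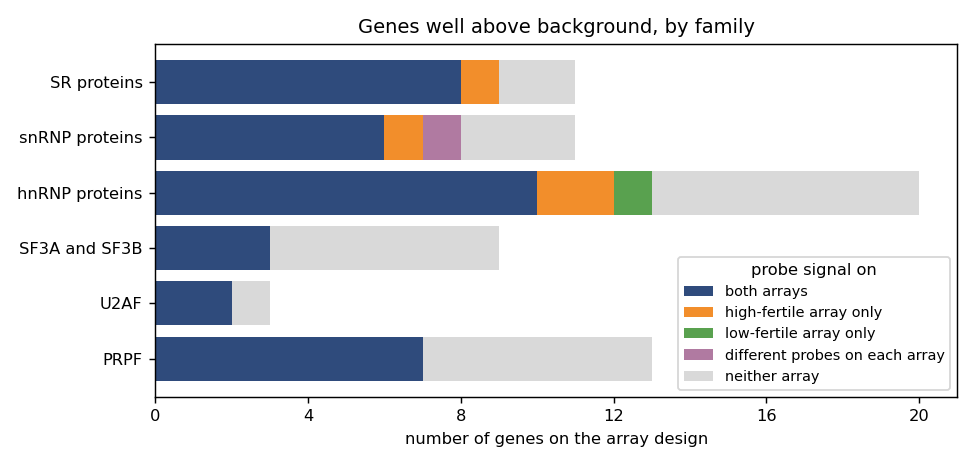
Number of genes per family (horizontal axis) by where they had a probe well above background: both arrays, the high-fertile array only, the low-fertile array only, different probes on each array, or neither. SR protein genes were measured on both arrays for 8 of 11 and SF3A and SF3B genes for 3 of 9.

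None of the 36 measured genes was 2-fold higher in high-fertile RNA and none was 2-fold lower. Over all 11618 measured genes, 217 were higher by that rule (1.87%) and 284 were lower (2.44%), so a count of 0 among 36 genes lies near the background. The 36 differences ran from -0.66 for SRSF9 to 0.87 for SRSF5, with 15 above 0 and 21 below 0. Their median was -0.04 and their middle 50% lay between -0.34 and 0.13, against a median of -0.0004 and a middle 50% between -0.25 and 0.24 for all measured genes. Within 0.5 of equality lay 29 of the 36 (80.6%, against 78.3% of all measured genes). Of the 51 measured probes 25 were above 0 and 26 below, and 2 reached 2-fold higher, 1 each of U2AF2 and PNISR, while 0 reached 2-fold lower (over all probes 2.14% and 2.8%).

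**Figure D2:**
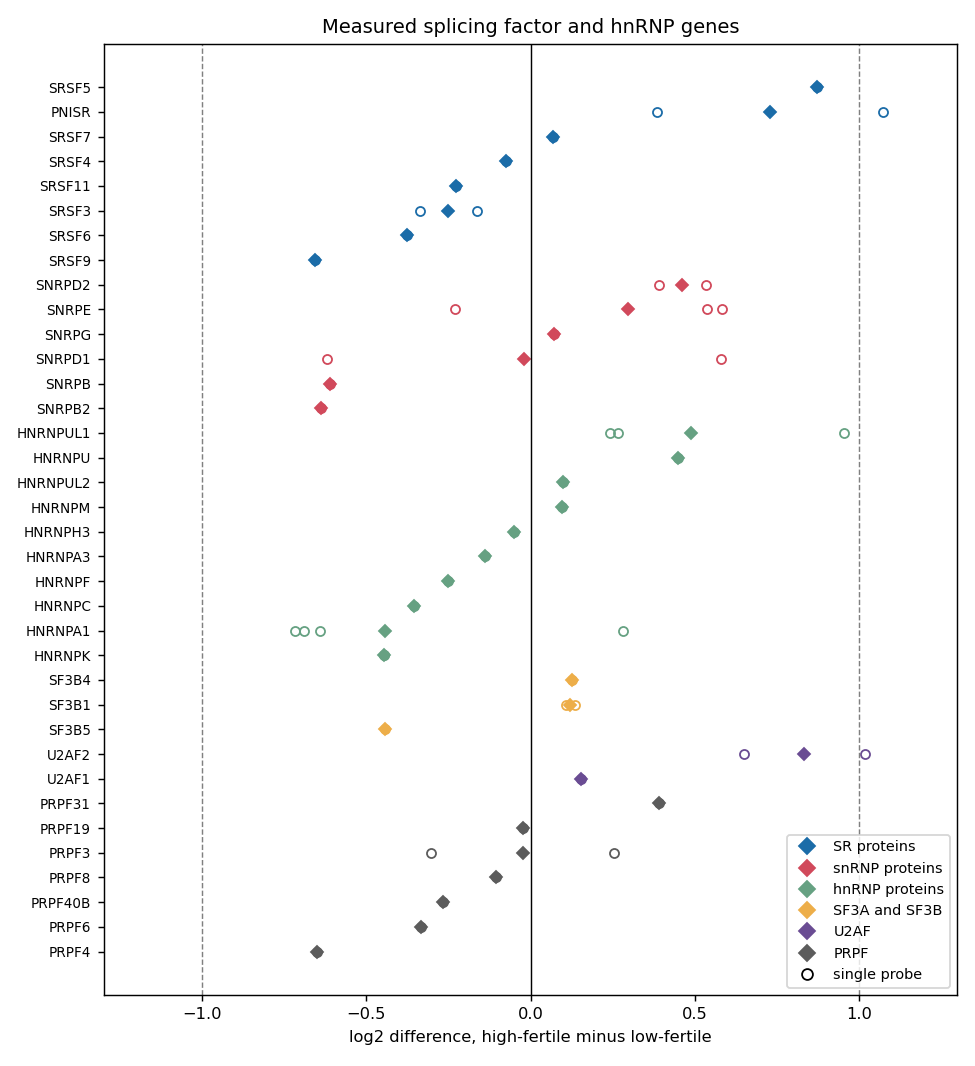
Log2 difference, high-fertile minus low-fertile (horizontal axis), of the 36 measured genes by family, with filled diamonds for genes and open circles for their single probes. All gene values lie inside the dashed lines at 2-fold, from -0.66 for SRSF9 to 0.87 for SRSF5.

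U2AF recognises the 3′ end of the intron as a dimer. Both of its measured genes were above 0, U2AF2 at 0.83 and U2AF1 at 0.15, although U2AF1 turned below 0 (-0.44) with spike-in scaling. U2AF2, the large subunit that binds the pyrimidine tract, had 2 measured probes. The probe nearest the 3′ end read 9248 on the high-fertile array, against 7399 on the low-fertile one, a difference of 0.65. The probe upstream read 322.5 on the high-fertile array, against 199.7 on the low-fertile one, a difference of 1.02, so both probes were brighter on the high-fertile array even before scaling. A further U2AF2 probe was above background on the high-fertile array only, at 25.8 there. It read 32.9 on the low-fertile array, where it was not well above background, a scaled difference of -0.02. The remaining U2AF2 probe was above background on neither array (19.9 on the high-fertile array, against 10.8). These dim probes lie 570 and 573 bases from the probe nearest the 3′ end. That bright probe shares 16 bases with a probe of another gene name, so its signal may not be of U2AF2 alone. The difference of U2AF2 stayed above 0 under all 13 alternatives, from 0.24 with spike-in scaling to 0.94 with the deposited matrix. The alternatives are not equal checks. Using all probes of the current symbol changed none of these genes. Settings that filter or pick probes can drop a gene with 1 probe on the array but cannot change its value. U2AF1, the small subunit that reads the AG at the end of the intron, had 72.8 on the high-fertile array, against 82.1 on the low-fertile one, and its difference of 0.15 is smaller than the SD between spots. U2AF1L4, a relative of the small subunit, had no probe called well above background.

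SR proteins bind exonic enhancers through RNA recognition motifs and recruit the spliceosome through their arginine-serine domains. Of 8 measured genes 3 were above 0 and 5 below, with a median of -0.15 that became 0.025 after normexp background correction. PNISR, 1 of those above 0, is counted here only through its array name SFRS18. SRSF5 had the largest difference of all 36 genes. Its 1 measured probe read 104.7 and 100.5 in its 2 spots on the high-fertile array, against 74.1 and 66.6 on the low-fertile array. The spots did not overlap between arrays and gave differences of 0.82 and 0.92. SRSF5 remained above 0 under every alternative it could be computed for (12), at 0.22 without a filter on dim probes and 0.51 after normexp.

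SRSF9, another SR protein of broad tissue distribution, stood at the other end of the family. Its only probe read 164.4 on the high-fertile array, against 325.2 on the low-fertile one, a difference of -0.66. It was below 0 under all 13 alternatives, between -1.25 and -0.55. With this 1 probe, the settings that filter or pick probes gave back the reported value and are no separate check. SRSF6 was at -0.38 (31.5 on the high-fertile array, against 51.2 on the low-fertile one). Both signals lay near the lowest ones called well above background, 22.6 and 30.3. SRSF3, an SR protein that also takes part in mRNA export, had measured probes at -0.34 and -0.16. A further SRSF3 probe read 23.1 on the high-fertile array, below the detection call, and 61.8 on the low-fertile array. By these readings it was 2.13-fold lower on the high-fertile array. PNISR, an arginine-serine-rich nuclear protein rather than a classical SR protein, averaged 0.73 with an SD of 0.49 over 2 probes. The downstream probe read 63.3 on the high-fertile array, against 60.8 on the low-fertile one (0.38), and the upstream one 89.9 on the high-fertile array, against 53.6 on the low-fertile one (1.07). SRSF4, SRSF7 and SRSF11 lay between -0.23 and 0.07. SRSF2, which reads exonic enhancers and was long used as a marker of nuclear speckles, was above background on the high-fertile array only. Its probe was at least 1.25-fold higher there (30.2 on the high-fertile array, against 27.8 on the low-fertile one). That was 1 of 3 probes, and SRSF2 was at -0.11 without the filter on dim probes.

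Proteins of the snRNPs comprise the Sm ring, shared by most snRNPs, and proteins particular to U1 or U2. Of 6 measured genes 3 were above 0 and 3 below, with a median of 0.03 and a range from -0.64 to 0.46, and the median turned below 0 with quantile, loess or spike-in scaling and without the filter on dim probes. Within the Sm ring the members differed: SNRPD2 was at 0.46 and SNRPE at 0.30, SNRPG at 0.07 and SNRPD1 at -0.02, and SNRPB at -0.61. SNRPD2 rested on 2 probes with 68.8 and 41.1 on the high-fertile array and 65.8 and 35.6 on the low-fertile array, at 0.39 and 0.53. SNRPB, which encodes SmB, had 34.4 on the high-fertile array, against 65.9 on the low-fertile one, from its only probe. Its difference shrank to -0.12 after normexp correction and remained below 0 under all 12 alternatives. SNRPG had 734.4 on the high-fertile array, against 876.3 on the low-fertile one, and its arrays did not differ by more than the SD between spots. SNRPD3 and SNRPF, the other ring members by this naming, were above background on neither array.

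SNRPB2, the U2-specific protein that binds the U2 RNA, was at -0.64 with 89.3 on the high-fertile array, against 174.1 on the low-fertile one. A second SNRPB2 probe was above background on the low-fertile array only, at 7.39 on the high-fertile array, against 43.0 on the low-fertile one. Both SNRPB2 probes were thus dimmer on the high-fertile array. SNRPA1, its partner in the U2 particle, was above background on the high-fertile array only. Its bound was at least 1.20-fold higher, from 29.1 on the high-fertile array, against 29.2 on the low-fertile one. That was 1 of 5 probes. Another SNRPA1 probe read 16.1 on the high-fertile array, against 36.6 on the low-fertile one, called on neither. The gene was at -0.22 without the filter on dim probes. SNRPA, a U1 protein, had 1 probe called on the high-fertile array only (23.8 there, against 24.3 on the low-fertile array) and 1 called on the low-fertile array only (18.0 on the high-fertile array, against 48.5). SNRPC, the other U1 protein here, had no probe called well above background.

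The hnRNPs package pre-mRNA, and many of them bind silencers near exons. Of 10 measured genes 4 were above 0 and 6 below, and all 10 lay within 0.5 of equality. The median was -0.09, and lay above 0 with normexp (0.017), the brightest probe (0.023), the matrix values (0.011), the percentile over all probes (0.0077) or the stricter filter, which left 2 genes (0.26). HNRNPUL1, a nuclear scaffold-type hnRNP, was highest at 0.49 with an SD of 0.40 over 3 probes. Its middle probe read 921.9 on the high-fertile array, against 596.4 on the low-fertile one, a difference of 0.96. The flanking probes read 56.8 and 41.4 on the high-fertile array and 60.2 and 43.2 on the low-fertile array, at 0.24 and 0.27. HNRNPU, its relative that binds scaffold-attachment DNA as well as RNA, was at 0.45 (69.7 on the high-fertile array, against 64.1 on the low-fertile one). Both HNRNPUL1 and HNRNPU turned below 0 with spike-in scaling, at -0.11 and -0.15, and HNRNPU did so without the filter on dim probes, at -0.11.

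HNRNPK, a poly(C)-binding hnRNP with KH domains, was lowest at -0.45, next to HNRNPA1 at -0.44, whose single probes are compared further on. The 2 HNRNPK probes, which lie 4181 and 29 bases from the 3′-most probe of the gene, gave nearly the same difference, with an SD of 0.002: 40.0 and 41.0 on the high-fertile array, against 68.2 and 70.2 on the low-fertile array. The value moved to -0.11 after normexp correction. HNRNPC, which binds runs of U, was at -0.36 with 62.7 on the high-fertile array, against 100.6 on the low-fertile one. HNRNPF, HNRNPA3, HNRNPH3, HNRNPM and HNRNPUL2 lay between -0.25 and 0.10. HNRNPL, a regulator that binds CA repeats, was above background on the high-fertile array only. It was 1.67-fold higher by the probe's own readings (44.8 on the high-fertile array, against 33.6 on the low-fertile one). That was 1 of 3 probes, and HNRNPL was at -0.05 without the filter on dim probes. HNRNPH1 was likewise seen on the high-fertile array only, in 1 of 6 probes, with a bound of 1.11-fold higher. That bound, 0.15 in log2, is less than the SD between spots. HNRNPH1 was at -0.31 without the filter on dim probes. HNRNPDL was seen on the low-fertile array only, in 1 of 6 probes. It was 1.67-fold higher there by the probe's own readings (24.0 on the high-fertile array, against 50.2 on the low-fertile one). HNRNPDL was at -0.26 without the filter on dim probes. None of the 5 genes seen on one array only had a bound of 2-fold. Counted by probe, 1 of 13 one-array probes reached it, the SRSF3 probe given above. The same share over the whole array was not computed.

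**Figure D3:**
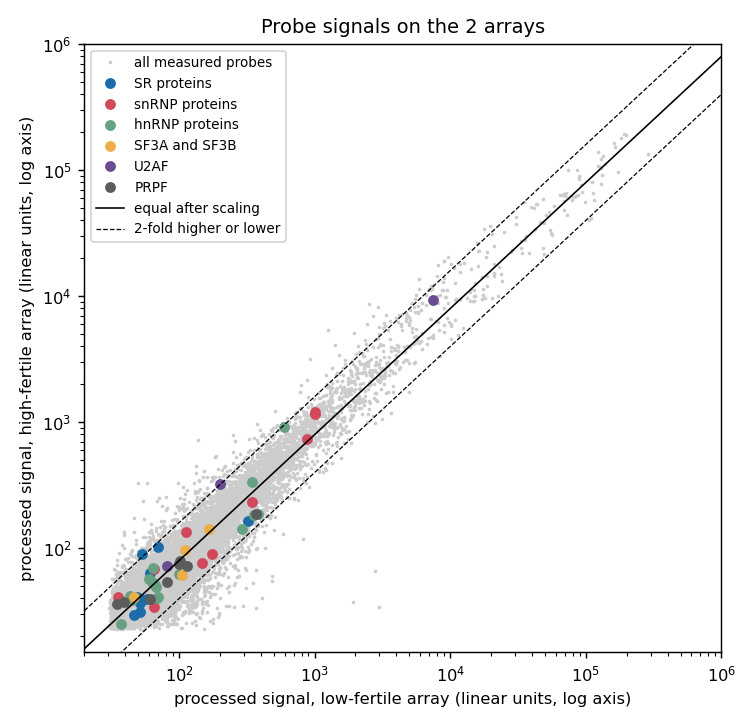
Processed signal of each measured probe on the high-fertile array (vertical axis) against the low-fertile array (horizontal axis), both in linear units on log axes, with the 51 probes of these genes coloured by family over all 14154 measured probes. The solid line marks equal scaled signal and the dashed lines 2-fold. The U2AF2 probe nearest the 3′ end lies at 9248 and 7399, above the solid line.

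SF3A and SF3B belong to the U2 snRNP and hold the branch point. Only 3 of their 9 genes were measured, at -0.44, 0.12 and 0.12. SF3B1, the large subunit that contacts the branch point region, was at 0.12 with an SD of 0.02 over 2 probes, which read 141.7 and 40.9 on the high-fertile array and 164.9 and 46.8 on the low-fertile array. SF3B4, a subunit with RNA recognition motifs, was at 0.12 (97.0 on the high-fertile array, against 111.6 on the low-fertile one). Both differences are below the SD between spots, and both turned below 0 with spike-in scaling and without the filter on dim probes. SF3B5, a small subunit, was at -0.44 from its only probe (61.2 on the high-fertile array, against 104.4 on the low-fertile one). It was below 0 under all 12 alternatives, though those that filter or pick probes could not move it.

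PRPF proteins act mainly in the U4/U6.U5 tri-snRNP and at the catalytic centre. Of 7 measured genes 6 were below 0 and 1 above, with a median of -0.11. That split depends on the scaling: 4 were below 0 and 3 above with quantile normalization, the matrix values, or scaling on the median of measured probes or on the percentile of all probes, and all 7 were below 0 with spike-in scaling or without the filter on dim probes. PRPF4, a U4/U6 protein, was lowest at -0.65, with 188.1 on the high-fertile array, against 369.9 on the low-fertile one. It was below 0 under all 13 alternatives (-1.25 to -0.43). PRPF4 has 1 probe, so the settings that filter or pick probes could not move it. PRPF6, which bridges the tri-snRNP, was at -0.33 (71.9 on the high-fertile array, against 113.6 on the low-fertile one). PRPF8, the U5 protein that forms the cavity of the active site, was at -0.11 (74.3 on the high-fertile array, against 100.4 on the low-fertile one), less than the SD between spots. PRPF31, a U4/U6 protein that is known for its part in inherited retinal degeneration in humans, was at 0.39 (36.3 on the high-fertile array, against 34.7 on the low-fertile one). PRPF3, PRPF19 and PRPF40B lay between -0.27 and -0.02.

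Several measured probes were available for 11 genes, and the probes of a gene need not give one answer. They had opposite signs in 4 genes and were more than 0.5 apart in 6. HNRNPA1, one of the most abundant hnRNPs in most cells and a shuttling protein that represses exons, had the mean of -0.44 with an SD of 0.48 over 4 probes. Its probe nearest the 3′ end read 336.3 on the high-fertile array, against 346.9 on the low-fertile one, a difference of 0.28. The 3 upstream probes read 141.4, 182.9 and 187.8 on the high-fertile array, against 291.6, 357.9 and 380.3 on the low-fertile array, at -0.72, -0.64 and -0.69. The 3 upstream probes thus all stood below 0, by 0.97 on average from the 3′ probe, which lies 1285 bases from the nearest of them.

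SNRPD1 and SNRPE, both of the Sm ring, had the same order along the transcript. The SNRPD1 probe nearest the 3′ end read 133.5 on the high-fertile array, against 111.9 on the low-fertile one (0.58), and the upstream probe 76.4 on the high-fertile array, against 147.4 on the low-fertile one (-0.62), 1.20 apart. A further upstream SNRPD1 probe read 13.3 on the high-fertile array, below the detection call, and 36.3 on the low-fertile array. In SNRPE the pair of overlapping probes with the AATAAA read 1158 and 1199 on the high-fertile array, against 1002 and 1004 on the low-fertile array, at 0.54 and 0.58. The SNRPE probe upstream, whose bases are spread over 2452 bases of genome, read 233.5 on the high-fertile array, against 343.7 on the low-fertile one, at -0.23. A contrast between probes of one gene does not move with a constant scaling of an array. This contrast was chosen after seeing the data, and was 0.77 to 0.97 for HNRNPA1, 0.74 to 1.20 for SNRPD1 and 0.64 to 0.77 for SNRPE over the reported setting and the normexp, quantile, loess and GC-trend alternatives.

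No such order held over all 11 genes. In 8 of the 11 genes the measured probe nearest the 3′ end had the lower difference. It was lower by 0.69 in PNISR, whose measured probes lie side by side on the genome. The step was 0.56 in PRPF3 and 0.37 each in U2AF2 and HNRNPUL1. Smaller steps were seen in HNRNPK (-0.003), SF3B1 (-0.03), SNRPD2 and SRSF3. In PNISR, SF3B1, HNRNPK and SNRPD2 the probe compared was not the gene's 3′-most probe on the array. The median over the 11 genes of the 3′ value minus the upstream mean was -0.14. The gene means of HNRNPA1, SNRPD1, SNRPE and PRPF3 combine readings of opposite sign, and 25 of the 36 genes rest on 1 probe, which cannot show such a split.

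**Figure D4:**
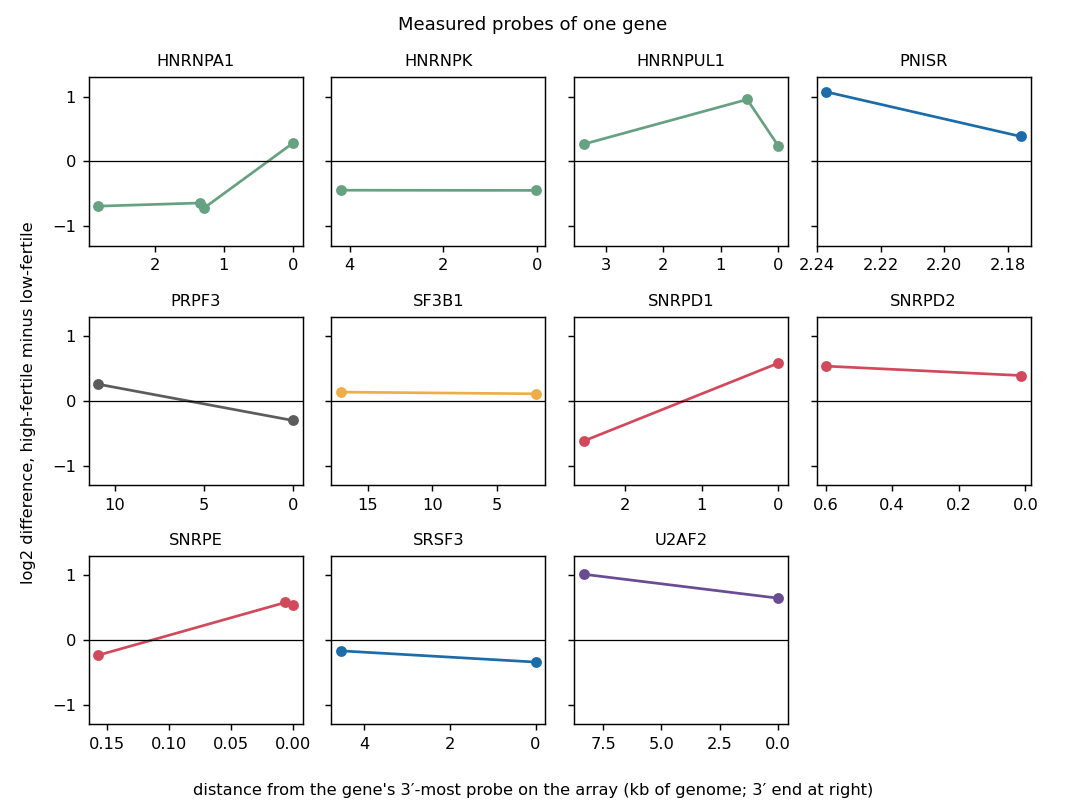
Log2 difference, high-fertile minus low-fertile (vertical axis), of each measured probe against its distance in kilobases from the gene's 3′-most mapped probe (horizontal axis), with 1 panel for each of the 11 genes with several measured probes. The 3′ probe of HNRNPA1 lies at 0.28 and its 3 upstream probes between -0.72 and -0.64.

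Detection is given here by where a probe lies, as a description. Among these families' genes with at least 3 mapped probes, 13 of 39 probes nearest the 3′ end were measured (33.3%), against 27 of 124 other probes (21.8%). Probes spread over more than 100 bases of genome were measured for 9 of 43 (20.9%, against 18.1% over the array), and probes within 100 bases for 41 of 159 (25.8%, against 29.1%). The hexamer AATAAA, searched as written and as its reverse complement TTTATT with no other motif, was found in 23 of the 207 probes (11.1%, against 8.35% of all probes) and TTTATT in 7 (3.38%, against 3.30%). Of the 23 probes 5 were measured (21.7%, against 30.7% of all probes with the hexamer). Of the 207 probes 29 share 16 bases with a probe of another gene name, and 9 of those were measured. These 9 lie in PRPF40B, U2AF1, HNRNPC, HNRNPU and SNRPD1, 1 each in U2AF2 and HNRNPA1, and the overlapping pair of SNRPE. Their signal may hold RNA of more than one gene. Some of the other names are sequence identifiers without a gene symbol, so whether they are different genes was not tested. The share over all probes was not computed.

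Other splicing genes, outside the name rule, were taken from 6 lists. Of 12 measured genes of snRNP, tri-snRNP and U2 proteins none reached 2-fold, and their median was 0.18, with SF1, which binds the branch point before U2 does, at 0.66 and RBM17 at -0.39. Each of these rested on 1 of 3 probes, and without the filter on dim probes SF1 was at -0.015 and RBM17 at 0.045. The 4 measured LSM genes (median 0.17), the 10 of the PRP19 complex and step factors (0.11) and the 7 of the exon junction complex and mRNA export (0.01) also held no call among measured values, and neither did 21 other splicing regulators (0.002). SNW1, of the PRP19 list, was at -0.44 from 1 measured probe. Another SNW1 probe read 10.5 and 8.49 in its 2 spots on the high-fertile array, below the detection call, against 132.5 and 119.9 on the low-fertile array, at least 4.45-fold lower on the high-fertile array. Among 11 measured SR-related proteins and SR kinases (median 0.05) TRA2A was the only gene called. TRA2A, an SR-like activator of exons, was 4.20-fold higher, with 329.7 on the high-fertile array, against 98.4 on the low-fertile one. It rested on 1 of 2 probes: the other read 5.53 on the high-fertile array, against 14.1 on the low-fertile one, not above background on either, and the difference was 0.52 when both were averaged without the filter on dim probes. CLK2, a kinase that phosphorylates SR proteins, was at -0.70 (97.9 on the high-fertile array, against 199.1 on the low-fertile one), and SRPK1, another SR kinase, at 0.51 (59.7 on the high-fertile array, against 52.7 on the low-fertile one). SRPK1 rested on 1 of 4 probes and turned below 0 without the filter on dim probes (-0.38) and with spike-in scaling (-0.091).

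RBFOX1 and RBFOX3, tissue-specific regulators that bind GCATG, stood at opposite ends of the other splicing regulators. RBFOX1 was at -0.98, with 180.0 on the high-fertile array, against 445.0 on the low-fertile one. A second RBFOX1 probe read 76.4 on the high-fertile array and 30.3 on the low-fertile array, where it was not above background, so its probes disagreed in direction, and the mean without the filter on dim probes was 0.20. RBFOX3 was at 0.87 with an SD of 0.26 over 2 measured probes, both above 0.

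The median of these genes minus the median of all genes lay between -0.07 and -0.002 over the reported setting and the 13 alternatives. Both ends came from settings that changed the genes compared. They were -0.07 without the filter on dim probes (67 genes) and -0.002 with the stricter filter (8 genes). Over the settings that kept the 36 genes it lay between -0.047 and -0.012. Scaling an array by a constant moves both medians alike and cannot change this value. It was therefore -0.036 by construction with the median of measured probes, the percentile of all probes, spike-in scaling and the matrix, which are no check of it.

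**Figure D5:**
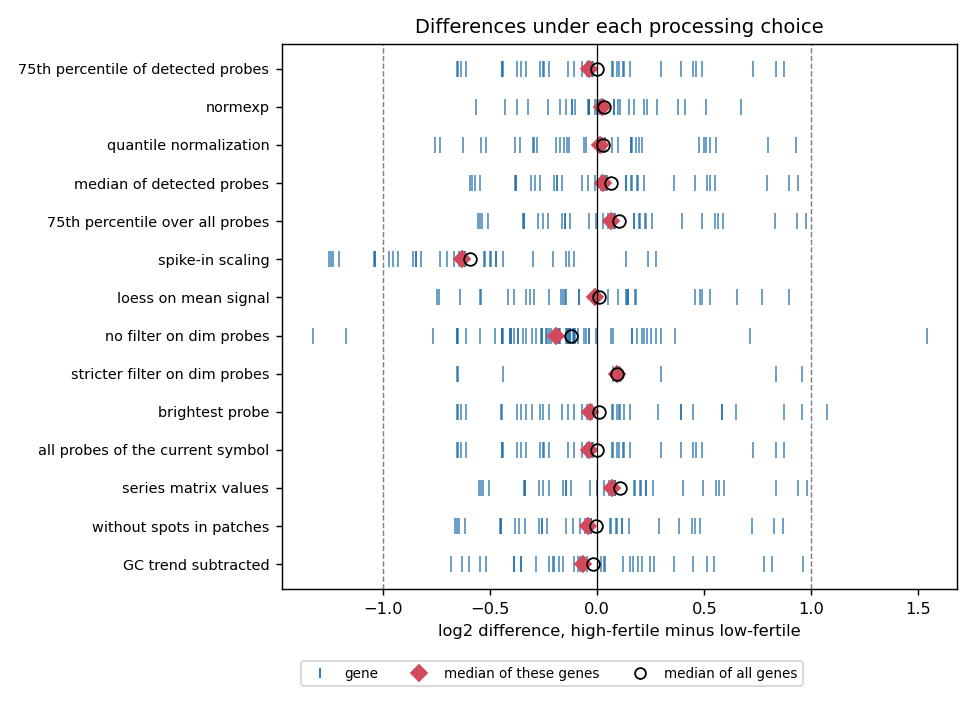
Log2 difference, high-fertile minus low-fertile (horizontal axis), of each gene under the reported setting (top line) and 13 alternatives, with ticks for genes, a diamond for their median and a circle for the median of all genes measured under that setting. Diamond and circle stay within 0.07 of each other in every line, and with spike-in scaling they lie at -0.63 and -0.60. Settings that shift an array by a constant cannot change that distance.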

How the data were processed

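The authors' deposited scanner tables hold spot intensities on a linear scale, which the file headers credit to 1-colour Agilent Feature Extraction (11.5.1.1), with background subtracted and spatial trends removed within each array. The deposited series matrix holds log2 values that equal the log2 processed signal plus one constant per array (-5.12 high-fertile, -5.55 low-fertile, within 0.01 for 98.6% of probes on each array), with column medians of -1.43 and -1.37. It states no normalization method, and its values are not centred by gene. How the arrays were normalized to each other is not given in the sources used here.

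Control and outlier spots were left out, spots of a probe averaged on the log2 scale, and each array's 75th percentile over the 14154 probes well above background on both arrays (27.6%, under the 50% that would call for all probes) was subtracted. A gene seen on one array only was set against the higher of the dim probe's own signal and the lowest signal well above background on the other array (22.6 and 30.3), as at least N-fold. Where the dim probe's own signal was the higher, N is the ratio of the readings and not a lower limit. Some probes without the call read above these lowest signals, so neither is a strict detection limit. The number of arrays limits the precision. Names came from accessions (182 of the 207 probes), symbols (22) or older symbols (3) in a RefSeq table of assembly ARS-UCD2.0, used for names only. Sequences are those in the scanner tables. Named genes are those at least 2-fold different, the 2 largest differences each way per family, up to 3 one-array genes per array, 12 always named, and up to 2 each way per related list. Any other gene was named after its value was seen. The families, lists and settings were chosen with earlier results of these data known. Settings that were tried include normexp with limma 3.58.1 in R 4.3.3, and Python 3.11.15 with pandas 2.3.3 was used for the rest. The scripts were tested on simulated data.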

Additional observations from a re-analysis of the deposited data

How the results depend on the processing

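Over 13 alternatives the count of 0 genes at least 2-fold higher became 1 without the filter on dim probes (SF3A1, at 1.54) and 1 with the brightest probe per gene (PNISR). The count of 0 genes at least 2-fold lower became 7 with spike-in scaling, where 15.3% of all genes were called lower, and 2 without the filter (HNRNPA2B1 and SNRPB2). The count of one-array genes with a bound of at least 2-fold became 1 with spike-in scaling. The median of -0.04 was 0.064 when all probes set the 75th percentile, 0.068 for the deposited matrix, -0.63 with spike-in scaling, -0.19 without the filter and 0.090 with a stricter filter that left 8 genes. The median of all genes moved to 0.10, 0.10 and -0.60 under the first 3 of these. Those 3 settings differ from the reported one by a constant per array, so both medians shift together. The filter settings changed which genes were counted (67 and 8). Which scaling is right was not tested. No called gene changed sign, since none of the 36 was called.

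Over all genes, the 217 higher and 284 lower calls (43.3% higher) became 72 and 48 with normexp (60.0%), 294 and 203 when all probes set the percentile (59.2%), 296 and 201 with the matrix (59.6%), 33 and 1776 with spike-in scaling (1.82%), 786 and 1752 without the filter (31.0%) and 125 and 46 with the stricter one (73.1%). No paired analysis was possible because each group has 1 array, and none could be left out. Low signal over background limits genes near 22.6 (high-fertile) and 30.3 (low-fertile).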
